A study of Homo sapiens with 12 samples.

Results

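A group of 37 interferon-stimulated and antigen processing genes was followed in human breast cancer cells grown inside synthetic matrices that mimic collagen or laminin. The genes were chosen by name, and all 37 were found among the 23368 gene symbols of the deposited count table. Of these, 34 are interferon-stimulated genes with roles in signalling, RNA sensing and antiviral defence, and 3 (PSMB8, PSMB9 and TAP1) cut or carry peptides for display to T cells.

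Interferons are secreted proteins that warn cells of infection. Type I interferons bind the receptor formed by IFNAR1 and IFNAR2, whose kinases JAK1 and TYK2 activate a complex that holds STAT2 and IRF9. It binds a DNA element, the interferon-stimulated response element (ISRE), in front of many antiviral genes. Interferon gamma uses the receptor formed by IFNGR1 and IFNGR2 and acts through another DNA element, the gamma-activated site (GAS). Tumour cells can carry these transcripts without added interferon, and the same signals raise the genes of antigen display.

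RNA was sequenced from 2 established breast cancer lines after 3 days of culture. MDA-MB-231 cells are oestrogen receptor-negative and mesenchymal, T47D cells are oestrogen receptor-positive and luminal, and each line came from a pleural effusion. Cells of each line were seeded as single cells in poly(ethylene glycol) hydrogels that cells can degrade, which carried either the peptide GFOGER (collagen mimic) or the peptide IKVAV (laminin mimic). The 11 libraries analysed here were 3 of MDA-MB-231 in GFOGER, 2 of MDA-MB-231 in IKVAV, 3 of T47D in GFOGER and 3 of T47D in IKVAV. The labels name no engineered genetic change, interferon or drug in any group. Each replicate pooled the RNA of 3 gels, all gels were dissolved with collagenase before extraction, and each subtype is represented by 1 line. The labels do not say that replicates were separate cultures, so the p-values measure the spread between these libraries, which may be technical.

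Total counts ran from 14338247 to 18452148 per library. Levels are given as cpm, counts scaled to a common library size with trimmed-mean (TMM) factors, and 3 counts correspond to 0.171 to 0.203 cpm. Most markers fixed for the lines matched their labels. Of 10 luminal markers, 10 were more than 2-fold lower in MDA-MB-231 than in T47D cells. Of 10 basal and mesenchymal markers, 8 were more than 2-fold higher and 2 more than 2-fold lower, so these 2 did not match. Over all genes tested, 23.7% were higher and 22.6% lower. ESR1, the oestrogen receptor, was at 0.52 to 0.80 cpm in MDA-MB-231 libraries and at 257 to 317 cpm in T47D libraries. VIM, the intermediate filament of mesenchymal cells, was at 1435 to 2417 cpm in MDA-MB-231 and at 3.72 to 5.29 cpm in T47D. In bulk RNA, fewer cells that make a transcript and less transcript per cell cannot be told apart.

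Libraries differed in 2 ways that bear on the results. First, the deposited RPKM values were computed with a library total of 5191201 to 5774966 in MDA-MB-231 IKVAV replicate 1, all 3 T47D GFOGER libraries and T47D IKVAV replicate 3, and of 19898878 to 22840524 in the others, although the counts were of similar depth. Second, T47D IKVAV replicate 3 stood apart from its group. With it, 6 of 13642 genes passed between the mimics in T47D cells, and without it 1054 of 13830 did (edgeR quasi-likelihood test, Benjamini-Hochberg adjusted p below 0.05 at any fold). Counts over the members between the mimics within each line are given with and without the library concerned. So are those of the MHC class II, proteasome and further interferon-induced lists in MDA-MB-231 cells.

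The DNA in front of the members was examined in start windows of RefSeq (GRCh38.p14, 250 bases before to 50 after each annotated start). Windows were matched for 31 of the 37 members. IRF7, OAS2, OASL, IFIT2, IFITM2 and MX2 had none in the table. The core of the ISRE, searched as 2 copies of GAAA on one strand with any 2 bases between them, was present in windows of 20 of the 31 members (64.5%), against 4.38% of the 27305 genes with a window. The GAS, searched as TTCNNNGAA, was present for 11 members (35.5%), against 9.38% of genes. Both strands were searched, the 2 motifs can overlap, and a match describes letters only. The stretches below were chosen because 4 belong to members that were higher in GFOGER than in IKVAV in MDA-MB-231 cells (IFIT1, IFIT3, ISG15 and IFI44) and 4 to members that were lower (IFITM1, IFITM3, IFI27 and IFI44L). Each is 30 bases, 5′ to 3′ on the strand of the gene, from before the start, and capitals mark the core on either strand.

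IFIT1 (chr10:89392510-89392539, plus strand): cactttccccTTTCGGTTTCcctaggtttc

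IFIT3 (chr10:89332468-89332497, plus strand): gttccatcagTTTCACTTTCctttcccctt

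ISG15 (chr1:1013380-1013409, plus strand): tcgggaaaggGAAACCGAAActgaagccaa

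IFI44 (chr1:78649759-78649788, plus strand): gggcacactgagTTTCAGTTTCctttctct

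IFITM1 (chr11:313990-314019, plus strand): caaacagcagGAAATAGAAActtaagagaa

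IFITM3 (chr11:320876-320905, minus strand): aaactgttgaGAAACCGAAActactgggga

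IFI27 (chr14:94110631-94110660, plus strand): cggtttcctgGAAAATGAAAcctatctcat

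IFI44L (chr1:78620365-78620394, plus strand): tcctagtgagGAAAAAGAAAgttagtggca

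The core was therefore found in front of members that moved either way. Of the members with a window, it was present for 6 of 7 that rose, 4 of 7 that fell and 10 of 17 that did not pass the test. The GAS was present for 0 of 7 that rose, 2 of 7 that fell and 9 of 17 that did not pass. The 7 members with neither motif in their windows were STAT2, CMPK2 and XAF1, which fell, PSMB9, which rose, and DDX58, UBE2L6 and HERC6, which did not pass.

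The members were found at widely different levels, and all but IFI44L, with 0 counts in T47D IKVAV replicate 1, had counts in every library. Their summed level was 2506 to 2626 cpm in MDA-MB-231 GFOGER libraries, 2348 and 2407 cpm in MDA-MB-231 IKVAV libraries, 903 to 1151 cpm in T47D GFOGER libraries and 735 to 919 cpm in T47D IKVAV libraries. The sums of the lines did not overlap. Compared per length, the highest member in both MDA-MB-231 groups was IFITM3, a membrane protein that blocks virus entry, at 269 ± 20.1 cpm per kb (SD, n = 3) in GFOGER and 431 ± 18.0 cpm per kb (SD, n = 2) in IKVAV. In T47D cells it was BST2, the tether that holds budding virus at the cell surface, at 122 ± 8.76 cpm per kb in GFOGER and 109 ± 8.41 cpm per kb in IKVAV (SD, n = 3 each). The lowest member per length was CMPK2 in MDA-MB-231 cells and IFI44L in T47D cells.

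**Figure D1:**
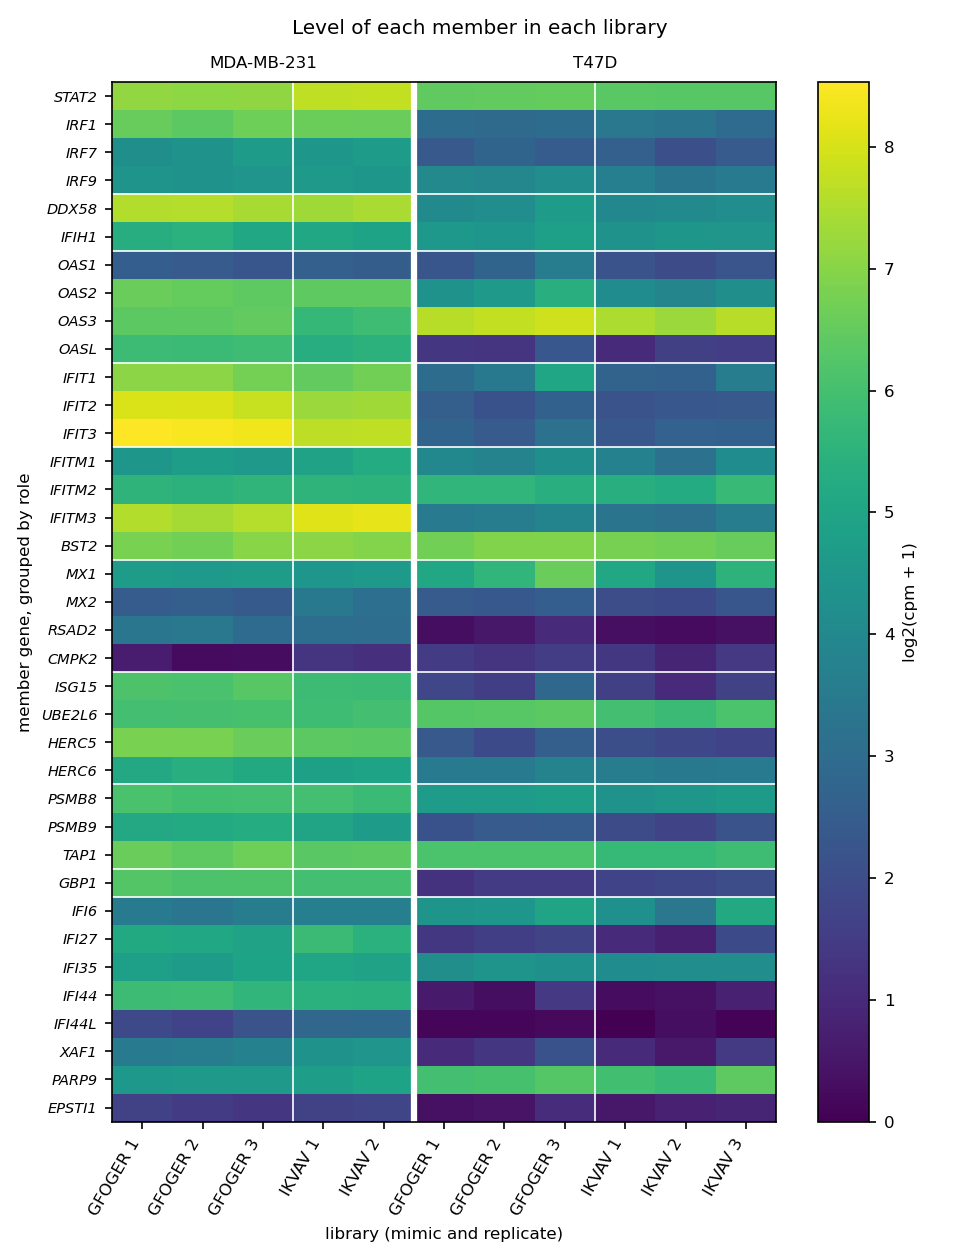
Level of each of the 37 members (rows, grouped by role) in each of the 11 libraries (columns), as log2(cpm + 1) in colour. IFIT2 and IFIT3 are bright in MDA-MB-231 libraries and dark in T47D libraries, while OAS3 and PARP9 are brighter in T47D.

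The first comparison asked whether the collagen mimic and the laminin mimic differ in MDA-MB-231 cells. Members moved in both directions. The IFIT genes, OAS3, OASL, ISG15, HERC5, PSMB9 and IFI44 were higher in GFOGER relative to IKVAV, and STAT2, IFITM1, IFITM3, MX2, CMPK2, IFI27, IFI44L and XAF1 were lower. In numbers, 9 of 37 members (24.3%) rose, where 21.4% of the 14092 genes tested rose, and 8 (21.6%) fell, where 21.4% of genes fell. Beyond 2-fold none rose, by edgeR, and 2 (CMPK2 and IFI44L, 5.41%) fell, against 3.12% of genes up and 6.46% down. These shares were near those of all genes. The median log2 fold change over the members was 0.07, beside 0.00 over all genes tested, and 20 members did not pass.

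Among the transcription factors, STAT2 changed and the 3 interferon regulatory factors did not pass. STAT2, a subunit of the complex that binds the ISRE, was at 141, 134 and 137 cpm in GFOGER and at 207 and 215 cpm in IKVAV. Both IKVAV libraries were above all 3 GFOGER libraries. It fell by 0.63 ± 0.09 on the log2 scale (SE, adjusted p = 3.04e-05 by edgeR's quasi-likelihood test, as for all adjusted p-values below). IRF9, its DNA-binding partner, was at 20.6, 19.5 and 21.1 cpm in GFOGER and at 22.9 and 22.1 cpm in IKVAV. Its groups did not overlap, but the log2 difference of -0.15 ± 0.13 did not pass (adjusted p = 0.363). IRF1, an early responder to interferon gamma, was at 91.7, 83.4 and 98.9 cpm against 96.2 and 94.6 cpm, which overlapped (log2 difference -0.07 ± 0.10, adjusted p = 0.604). IRF7, the factor that amplifies type I interferon production, had a log2 difference of -0.18 ± 0.15.

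The cytosolic RNA sensors did not pass. DDX58, which encodes RIG-I, had a log2 difference of 0.13 ± 0.10, and IFIH1, which encodes MDA5, of 0.29 ± 0.13 (adjusted p = 0.0826).

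Of the oligoadenylate synthetases, which make the messenger that activates RNase L, 2 of 4 rose. OAS3 was at 82.6, 82.1 and 89.3 cpm in GFOGER and at 50.5 and 57.4 cpm in IKVAV, with no overlap (log2 fold change 0.64 ± 0.11, adjusted p = 0.00018). OASL, which lacks the enzyme activity and assists RIG-I, rose by 0.43 ± 0.11 on the log2 scale (adjusted p = 0.00504), and did not pass without IKVAV replicate 1 (adjusted p = 0.109). OAS1 was at 4.86, 4.51 and 3.81 cpm against 5.18 and 4.70 cpm, and the groups overlapped (log2 difference -0.18 ± 0.22, adjusted p = 0.554). OAS2 had a log2 difference of 0.08 ± 0.10.

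All 3 IFIT genes, whose proteins bind viral RNA that lacks the host's cap methylation or scaffold antiviral signalling, rose. IFIT3 was at 369, 350 and 325 cpm in GFOGER and at 204 and 211 cpm in IKVAV. IFIT2 was at 265, 271 and 225 cpm in GFOGER and at 152 and 160 cpm in IKVAV. In both genes the lowest GFOGER library was well above the highest IKVAV library, and the log2 fold changes were 0.74 ± 0.09 for IFIT3 (adjusted p = 8.3e-06) and 0.69 ± 0.10 for IFIT2 (adjusted p = 4.87e-05). IFIT1 was at 132, 133 and 106 cpm against 89.4 and 104 cpm, so that its groups nearly met. Its log2 fold change of 0.35 ± 0.12 (adjusted p = 0.0247) did not pass when any one of 4 libraries was left out, with adjusted p of 0.0527 to 0.287 without MDA-MB-231 GFOGER replicate 1, GFOGER replicate 2, IKVAV replicate 1 or IKVAV replicate 2.

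Of the 4 membrane restriction factors 2 fell. IFITM3 was at 187, 164 and 189 cpm in GFOGER and at 280 and 297 cpm in IKVAV, and fell by 0.69 ± 0.09 on the log2 scale (adjusted p = 1.55e-05). IFITM1 was at 21.9, 26.8 and 23.4 cpm against 29.5 and 36.8 cpm. It fell by 0.47 ± 0.14 (adjusted p = 0.0118), a call that was lost without IKVAV replicate 2 (adjusted p = 0.251). IFITM2 (log2 difference -0.02 ± 0.11) and BST2 (-0.17 ± 0.10) did not pass. The IFITM genes are close copies of each other, so reads may have been split among them in ways that depend on the counting.

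Of the MX proteins, GTPases that trap viral particles, and the enzymes viperin (RSAD2) and CMPK2, which shape the nucleotide pool against viral polymerases, MX2 and CMPK2 fell. MX2 was at 4.57, 5.00 and 4.38 cpm in GFOGER and at 10.04 and 7.72 cpm in IKVAV (log2 fold change -0.94 ± 0.20, adjusted p = 0.00123). MX1 was at 25.3, 23.8 and 25.5 cpm against 21.5 and 23.3 cpm, a log2 difference of 0.14 ± 0.13 that did not pass (adjusted p = 0.392). CMPK2 had the largest change of any member, on few reads: 10, 3 and 4 counts in GFOGER and 22 and 21 counts in IKVAV. All 3 GFOGER libraries were below both IKVAV libraries, at 0.57, 0.19 and 0.23 cpm against 1.43 and 1.27 cpm, and the log2 fold change was -2.01 ± 0.53 (adjusted p = 0.00583). It did not pass without IKVAV replicate 1 (adjusted p = 0.0516).

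In the ISG15 system, which tags proteins with the ubiquitin-like modifier ISG15, the modifier and its ligase HERC5 rose. ISG15 was at 69.6, 67.2 and 79.3 cpm in GFOGER and at 56.2 and 55.5 cpm in IKVAV, with no overlap (log2 fold change 0.36 ± 0.11, adjusted p = 0.0139). The call was lost without IKVAV replicate 1 (adjusted p = 0.0993) and without IKVAV replicate 2 (adjusted p = 0.124). HERC5 rose by 0.36 ± 0.11 (adjusted p = 0.0116), and was likewise lost without either IKVAV library (adjusted p = 0.0867 and 0.123) and without GFOGER replicate 1 (0.0544). HERC6 (log2 difference 0.31 ± 0.12, adjusted p = 0.0511) and the conjugating enzyme UBE2L6 (0.07 ± 0.10) did not pass.

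Of the 3 antigen processing members 1 passed. PSMB9, an interferon-induced catalytic subunit of the immunoproteasome, was at 34.4, 35.9 and 37.8 cpm in GFOGER and at 30.4 and 24.96 cpm in IKVAV. It rose by 0.37 ± 0.13 on the log2 scale (adjusted p = 0.0259), and did not pass without IKVAV replicate 2 (adjusted p = 0.32). PSMB8, the second of these subunits, was at 67.1, 60.6 and 62.9 cpm against 61.6 and 55.5 cpm (log2 difference 0.11 ± 0.11, adjusted p = 0.435). TAP1, a subunit of the transporter that moves peptides into the endoplasmic reticulum, was at 94.8, 83.5 and 99.99 cpm against 79.9 and 83.4 cpm (log2 difference 0.18 ± 0.10, adjusted p = 0.188). PSMB8 and TAP1 overlap LOC100507463, which had at most 81 counts in a library. GBP1, a guanylate-binding GTPase, did not pass (log2 difference 0.20 ± 0.10).

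Of the other 8 interferon-induced genes, 3 fell and 1 rose. IFI44L was at 2.69, 2.28 and 3.53 cpm in GFOGER and at 6.03 and 6.15 cpm in IKVAV (log2 fold change -1.11 ± 0.24, adjusted p = 0.00148). XAF1, an antagonist of the apoptosis inhibitor XIAP, was at 10.5, 11.2 and 12.4 cpm against 19.4 and 20.8 cpm (-0.83 ± 0.14, adjusted p = 0.000249). IFI27, a mitochondrial protein, was at 35.5, 33.2 and 29.2 cpm against 54.9 and 42.4 cpm (-0.58 ± 0.13, adjusted p = 0.00227). None of the 3 overlapped between the mimics, and IFI27 did not pass without IKVAV replicate 1 (adjusted p = 0.108). IFI44 rose by 0.36 ± 0.12 (adjusted p = 0.0212), a call lost without any one of GFOGER replicates 1 and 2 and IKVAV replicates 1 and 2 (adjusted p = 0.0781 to 0.144). IFI6, IFI35, PARP9 and EPSTI1 had log2 differences of -0.36 to -0.15 and did not pass. PARP9 overlaps DTX3L by 339 bases, and the strand setting of the counting is not given in the sources used here, so reads of the 2 genes cannot be told apart there.

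Within the set of libraries that share the higher RPKM totals, that is without MDA-MB-231 IKVAV replicate 1, 4 members rose (where 13.1% of genes did) and 6 fell (where 13.8% did). Of the members that no longer passed, ISG15 (0.37), HERC5 (0.38), IFI44 (0.37) and CMPK2 (-1.92) kept log2 fold changes close to those with all libraries, while IFIT1 (0.24), OASL (0.35) and IFI27 (-0.38) lay closer to 0. IKVAV is then a single library, whose spread is taken from the GFOGER libraries. STAT2, IFIT2, IFIT3, IFITM3, OAS3, MX2, XAF1 and IFI44L passed with each library left out in turn.

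**Figure D2:**
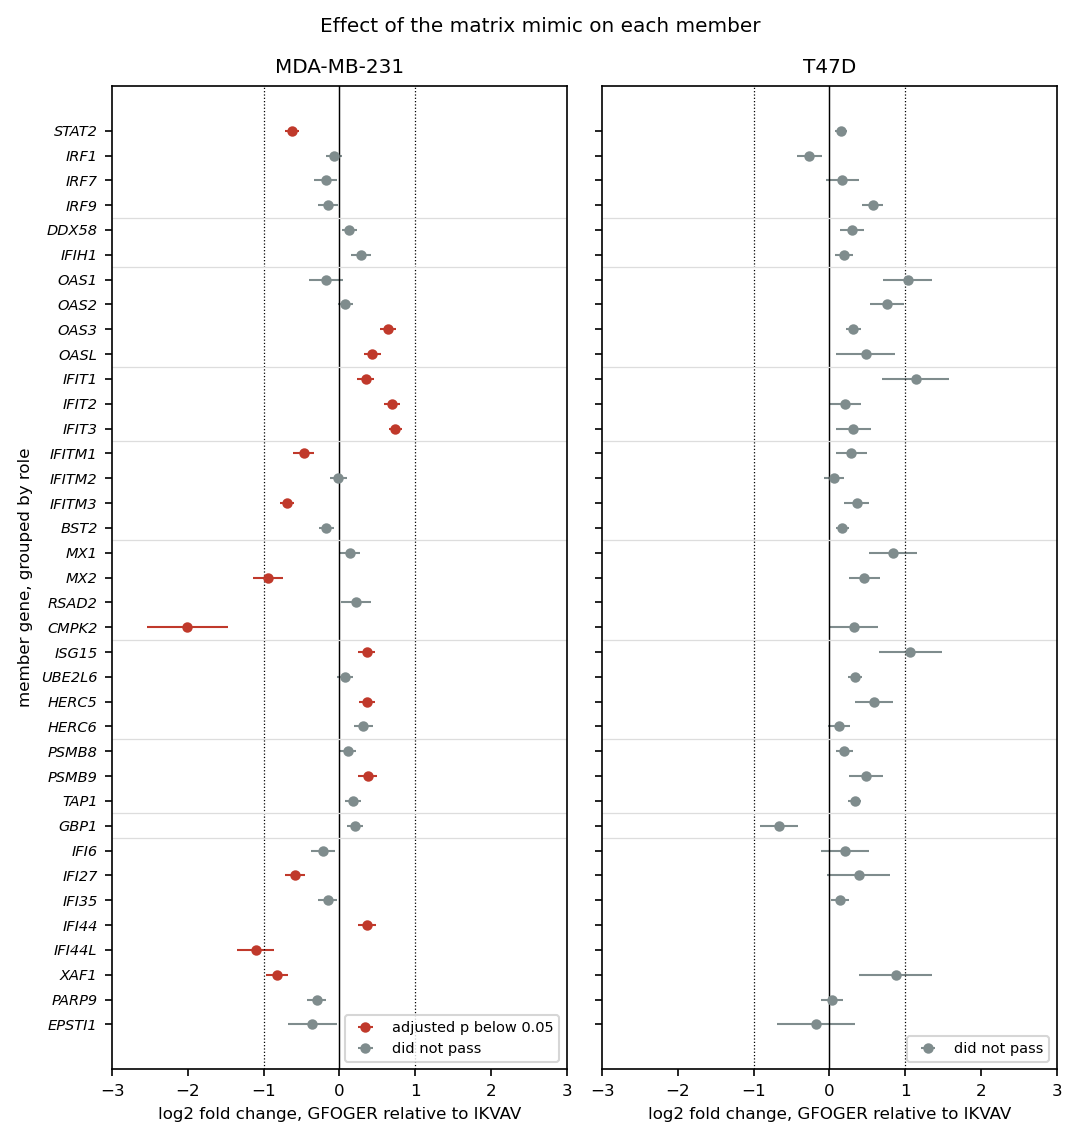
Log2 fold change of each member (rows, grouped by role) in GFOGER relative to IKVAV, for MDA-MB-231 (left) and T47D (right), with bars of 1 SE and dotted lines at a 2-fold change. In MDA-MB-231 cells 9 members lie to the right and 8 to the left with an adjusted p below 0.05, and in T47D cells none passed although 31 of 34 lie to the right.

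Several members sit next to each other in the genome (hg19, from the deposited table), and neighbours did not always move alike. CMPK2 (chr2:6980684-7006766) and RSAD2 (chr2:7017796-7038363) lie 11029 bases apart. RSAD2 was at 9.26, 9.69 and 6.89 cpm in GFOGER and at 7.52 and 7.23 cpm in IKVAV, which overlapped (log2 difference 0.22 ± 0.20, adjusted p = 0.395), while CMPK2 fell as given above. IFI44L (chr1:79086088-79111830) fell, and IFI44 (chr1:79115477-79129763), which starts 3646 bases further on, was at 57.1, 58.2 and 48.5 cpm against 42.5 and 42.0 cpm and rose. MX2 (chr21:42733950-42780869) fell and MX1 (chr21:42792520-42831141), 11650 bases away, did not pass. The difference between the neighbours of a pair was not tested. On chromosome 6, PSMB8, TAP1 and PSMB9 lie in a row with gaps of 273 and 189 bases, and their log2 differences were 0.11, 0.18 and 0.37.

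**Figure D3:**
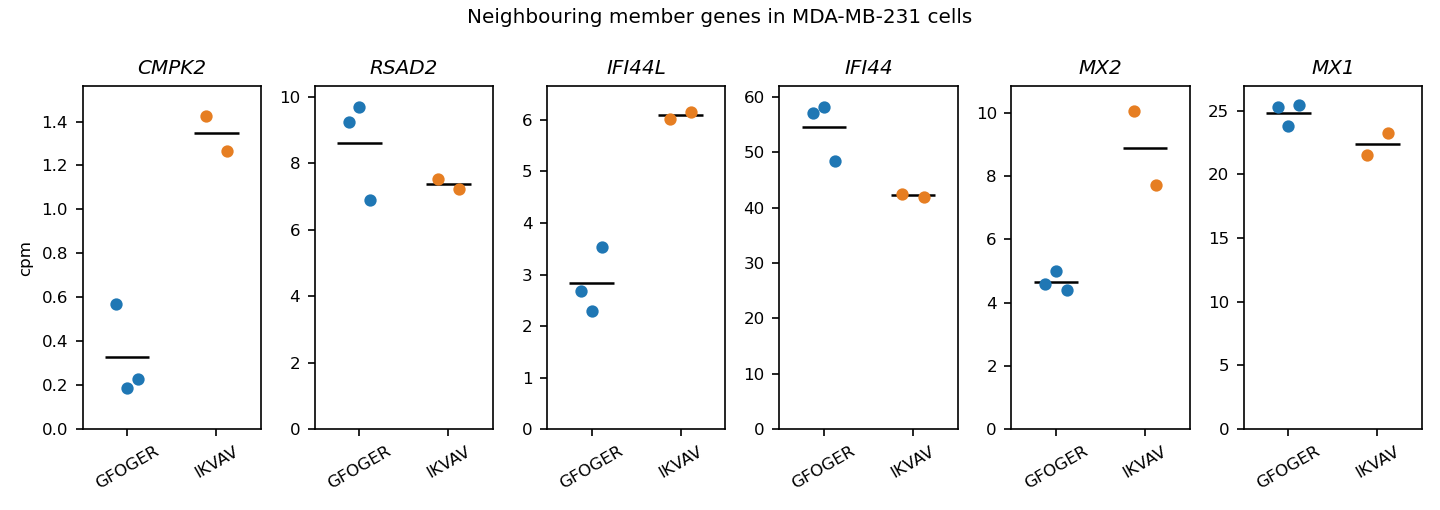
Level in cpm of 3 pairs of neighbouring members in MDA-MB-231 libraries, with 1 point per library and a bar at the group mean, and a separate axis from 0 for each gene. CMPK2, IFI44L and MX2 are lower in all GFOGER libraries than in both IKVAV libraries, while RSAD2 overlaps and IFI44 and MX1 are higher in GFOGER.

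The rest of the pathway was read from lists of named genes. No interferon transcript was found at a level that could be tested: 18 of 21 interferon genes, IFNB1 among them, had 0 counts in every library, which allows up to 0.171 to 0.203 cpm, and the most counts for any was 4. Of 16 receptor and signalling genes, 2 rose (12.5%) and 4 fell (25%) in MDA-MB-231 cells in GFOGER relative to IKVAV, near the 21.4% of all genes in each direction. The interferon gamma receptor chains fell, IFNGR1 by 0.72 ± 0.11 (adjusted p = 9.15e-05) and IFNGR2 by 0.31 ± 0.10 (adjusted p = 0.0187) on the log2 scale. IFNAR1 (0.08 ± 0.10), IFNAR2 (-0.28 ± 0.16), JAK1 (-0.02 ± 0.09), TYK2 (0.19 ± 0.11) and the ISG15 protease USP18 (-0.21 ± 0.43) did not pass. Without GFOGER replicate 3, 4 genes of this list rose and 5 fell, where 8017 of 13939 genes passed in either direction. With all libraries 6040 of 14092 genes did. Without GFOGER replicate 1, 2 of the list fell, where 4950 of 13972 genes passed in either direction. The counts also moved without either IKVAV library, which leaves that group 1 library. Of 16 further nucleic acid sensing genes tested, 3 rose (18.8%) and 2 fell (12.5%), beside 21.4% of all genes each way, and none fell without GFOGER replicate 1 or IKVAV replicate 2.

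Genes of antigen display outside the 37 changed in both directions too, with the heavy and light chains lower in GFOGER. Of 19 MHC class I presentation genes, 9 fell (47.4%, where 21.4% of all genes did) and 2 rose (10.5%, where 21.4% did). Fewer of them fell without IKVAV replicate 1, which leaves that group 1 library. HLA-B, a class I heavy chain, was at 414, 399.7 and 433 cpm in GFOGER and at 828 and 751 cpm in IKVAV. Both IKVAV libraries were well above the 3 GFOGER libraries. Its log2 fold change was -0.93 ± 0.08 (adjusted p = 1.58e-07). HLA-C (-0.80 ± 0.08), HLA-F (-1.18 ± 0.15) and the light chain B2M (-0.66 ± 0.10) fell as well. NLRC5, the class I transactivator, had a log2 difference of -0.28 ± 0.12 (adjusted p = 0.0659). The peptide transporter subunit TAP2 (0.83 ± 0.09) and the proteasome activator subunit PSME2 (0.57 ± 0.11) rose. HLA genes are near copies and highly variable between people, so their counts against a reference genome are uncertain.

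Of 11 MHC class II presentation genes, which serve antigen display to helper T cells, 10 fell (90.9%, where 21.4% of all genes did), 9 of them by more than 2-fold (where 6.46% did), and none rose. The same numbers of 10 and 0 passed at any fold without IKVAV replicate 1, where 13.8% of all genes fell. Their summed level was 1258, 1212 and 1255 cpm in GFOGER and 3145 and 3111 cpm in IKVAV. CD74, the invariant chain and the most abundant of the list, was at 621, 617 and 700.02 cpm against 1547 and 1562 cpm (log2 fold change -1.27 ± 0.08, adjusted p = 3.27e-09). HLA-DPB1 (-1.87 ± 0.11) and HLA-DRA (-1.74 ± 0.10) fell further, and HLA-DQA1 (-1.87 ± 0.40) did so on 6 to 57 counts per library. Since class II is a mark of immune cells, 13 leukocyte markers were read beside it. Their summed level was 357, 364 and 477 cpm in GFOGER and 273 and 264 cpm in IKVAV, nearly all of it from the lysosomal gene CD68 (343, 350 and 462 cpm against 256 and 246 cpm), which rose by 0.61 ± 0.11. LYZ, the lysozyme of myeloid cells, fell by 1.10 ± 0.28 on the log2 scale, and of the 4 markers tested the remaining CD8A and CD14 did not pass. The pan-leukocyte marker PTPRC was at 0.06 to 0.57 cpm in these libraries and the B cell marker MS4A1 at 0 in all 11. Of 6 endothelial and fibroblast markers tested, 5 fell, 3 of them beyond 2-fold (PDGFRB, LUM and COL1A2), and KDR rose (log2 fold change 0.96 ± 0.15), where 21.4% of all genes moved each way. Their list summed to 45.8 to 49.8 cpm in GFOGER and to 58.4 and 62.4 cpm in IKVAV. Its most abundant gene over all libraries was COL1A1, and CDH5, VWF, PDGFRA and DCN were at most 0.32 cpm in these 5 libraries. Of 9 basal and mesenchymal markers tested, 6 rose (66.7%) and 1 fell (11.1%), where 21.4% of all genes moved each way, and their list, led by VIM, summed to 5364 to 5894 cpm in GFOGER and to 3386 and 3337 cpm in IKVAV. The part of these markers in the class II result was not tested.

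The constitutive proteasome core rose in all 14 of its genes, none by 2-fold, where 21.4% of all genes rose. PSMB5 and PSMB6, the subunits that PSMB8 and PSMB9 replace in the immunoproteasome, rose by 0.51 ± 0.09 (adjusted p = 0.000356) and 0.55 ± 0.10 (adjusted p = 0.00025) on the log2 scale. PSMB10, the remaining immunoproteasome subunit, had a log2 difference of 0.03 ± 0.13 (adjusted p = 0.886). Without MDA-MB-231 IKVAV replicate 2, 9 of the 14 core genes passed, where 3444 of 14427 genes passed in either direction, and 11 did without IKVAV replicate 1, where 13.1% of all genes rose. Of 48 further interferon-induced genes tested, 20 fell (41.7%, against 21.4% of all genes), 7 of them by more than 2-fold (against 6.46%), and 6 rose (12.5%, against 21.4%). Without IKVAV replicate 1, 14 fell and 3 rose, against 13.8% and 13.1% of all genes. The largest falls were in LGALS9, a galectin (-2.14 ± 0.29, adjusted p = 2.07e-05), LAMP3, a lysosomal membrane protein (-1.42 ± 0.19), and GBP2, a relative of GBP1 (-1.32 ± 0.09).

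The same comparison in T47D cells gave no call. Of the 37 members, 34 were tested, since RSAD2, IFI44 and IFI44L had too few counts, and none passed by edgeR, at any fold or beyond 2-fold. The share of all 13642 genes that passed was 0.022% in each direction at any fold, and beyond 2-fold it was 0% up and 0.022% down. DESeq2 called none of the members, where it called 78 of all 13642 genes at any fold. Limma voom with sample quality weights called 6 up and 1 down where it called 1506 of all 13642 genes. By edgeR, 13 of 34 members had an unadjusted p under 0.05, where 1532 of all genes had. The log2 difference was positive for 31 of 34, with a median of 0.31, beside 0.00 over all genes. GBP1 (-0.67 ± 0.25), IRF1 (-0.26 ± 0.16) and EPSTI1 (-0.18 ± 0.52) were the exceptions. With the RPKM total as a term, which in T47D differs by mimic but for IKVAV replicate 3, the median was 0.18 and 27 of 34 were positive.

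The spread between T47D replicates was wide for these genes, and replicate 3 was high in both mimics. IFIT1 was at 7.18, 9.94 and 31.4 cpm in GFOGER and at 5.63, 5.25 and 11.2 cpm in IKVAV (log2 difference 1.14 ± 0.44, adjusted p = 0.366). MX1 was at 32.6, 47.7 and 94.9 cpm against 32.9, 20.4 and 44.4 cpm (0.84 ± 0.32, adjusted p = 0.353). The third library was the highest of its group in each case, and the groups overlapped. ISG15 was at 2.51, 1.96 and 6.38 cpm against 2.03, 1.04 and 2.14 cpm (1.07 ± 0.41, adjusted p = 0.367). OAS1 was at 3.83, 5.77 and 11.3 cpm against 3.59, 2.87 and 3.801 cpm (1.03 ± 0.32, adjusted p = 0.282). For OAS1 the lowest GFOGER library was only just above the highest IKVAV library.

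STAT2, IRF9 and TAP1 varied less between replicates. STAT2 was at 86.0, 89.5 and 89.8 cpm against 80.8, 79.1 and 79.4 cpm (0.15 ± 0.08, adjusted p = 0.494). IRF9 was at 15.3, 14.6 and 16.97 cpm against 11.9, 8.97 and 10.7 cpm (0.57 ± 0.14, adjusted p = 0.192). TAP1 was at 67.8, 68.8 and 67.8 cpm against 52.1, 51.7 and 58.5 cpm (0.33 ± 0.09, adjusted p = 0.199). None of these 3 overlapped between the mimics, which also held for other members, among them PSMB8 and, in the opposite direction, GBP1. The share of all genes without overlap was not computed, and none of the 3 passed over all genes. PSMB8 (0.20 ± 0.11) and PSMB9 (0.48 ± 0.22) did not pass, nor did IRF1, at 7.06, 6.79 and 7.12 cpm against 9.63, 8.72 and 6.89 cpm.

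Over all members, T47D GFOGER replicate 3 was the highest of its group for 32 of 37 and IKVAV replicate 3 for 25 of 37, and both held for 22. Among all genes tested, the same libraries were highest for 36.3% and 36.6%. The members' median deviation from their group mean was 0.19 and 0.15 on the log2(cpm + 1) scale in these 2 libraries, and lay between -0.15 and 0.03 in the other 9. The cause was not tested.

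**Figure D4:**
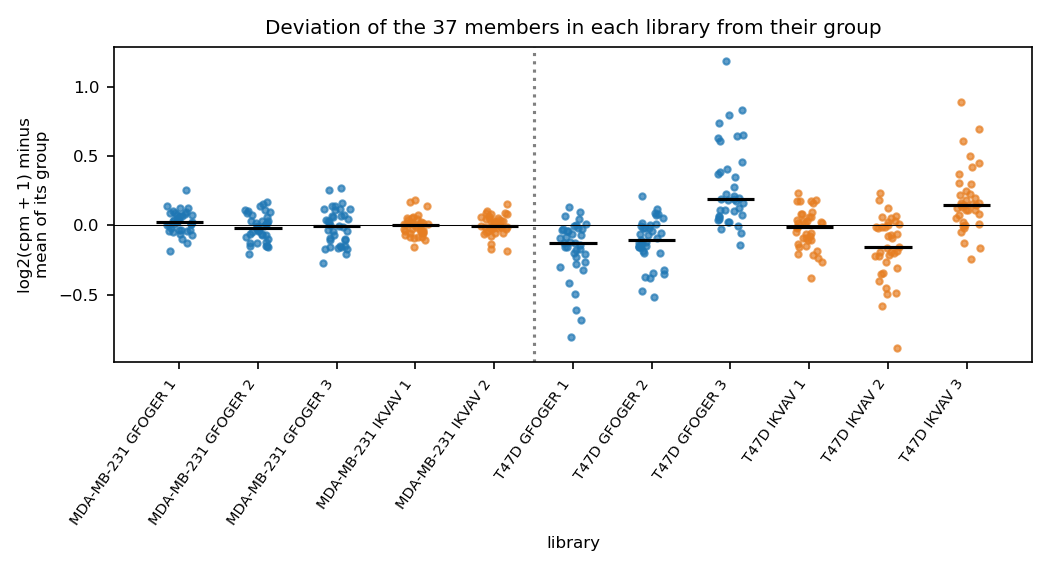
Deviation of each of the 37 members from the mean of its group, in log2(cpm + 1), in each of the 11 libraries (blue for GFOGER, orange for IKVAV), with a bar at the median. Points of T47D GFOGER replicate 3 and T47D IKVAV replicate 3 lie mostly above 0 (medians 0.19 and 0.15), while those of the MDA-MB-231 libraries centre near 0.

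The T47D result depended on 1 library. Leaving out IKVAV replicate 3 also leaves all T47D GFOGER libraries with low and all T47D IKVAV libraries with high RPKM totals, so that mimic and total cannot be told apart in the counts without it. Without IKVAV replicate 3, 12 of 34 members were higher in GFOGER (where 2.91% of genes were), 4 of them by more than 2-fold (where 0.152% of genes were). These 4 were IFIT1 (log2 fold change 1.58, adjusted p = 0.0135), IFI27 (1.23, adjusted p = 0.0374), MX1 (1.14, adjusted p = 0.00923) and OAS1 (1.12, adjusted p = 0.0275). The other 8 were IFI6, IFITM1, IFITM3, IRF9, OAS2, OAS3, TAP1 and UBE2L6. With replicate 3 left out of both mimics, an alternative added after the values were seen, 8 members passed, all higher in GFOGER (where 3.8% of genes were). In either direction 1301 of 13727 genes passed. The 8 were all among these 12: IFIT1, MX1, IFI6, IRF9, OAS2, OAS3, TAP1 and UBE2L6. Without GFOGER replicate 3 alone none passed (5 at an unadjusted p under 0.05), and the median fell to 0.19. None of the other pathway lists had a gene that passed in T47D cells with all libraries, and 1 of 15 receptor and signalling genes, 2 of 13 sensing genes, 4 of 18 class I genes, 0 of 9 class II genes, 0 of 14 proteasome core genes and 6 of 39 further interferon-induced genes had an unadjusted p under 0.05 (edgeR), beside 1532 of all 13642 genes.

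Whether the mimic acted differently in the 2 lines was tested as an interaction over all 11 libraries. Relative to T47D, the effect in MDA-MB-231 cells was more negative for 6 members (16.2%, where 10.2% of 15320 genes were) and more positive for 1 (GBP1, where 10.9% were). Beyond 2-fold there were 4, all negative (10.8%, where 4.17% were, and 2.25% were positive). CMPK2 had the largest difference of effects, -2.32 ± 0.60 on the log2 scale (adjusted p = 0.0098), with -2.01 in MDA-MB-231 and 0.32 in T47D. XAF1 differed by -1.69 ± 0.48 (adjusted p = 0.0164), MX2 by -1.39 ± 0.29 (adjusted p = 0.00199) and IFITM3 by -1.04 ± 0.17 (adjusted p = 0.000269). STAT2 (-0.77 ± 0.11) and IRF9 (-0.72 ± 0.19) passed below 2-fold, and so did GBP1 (0.88 ± 0.22). With the RPKM total as a term in the fit, CMPK2 (-1.95, adjusted p = 0.076), XAF1 (-1.46, adjusted p = 0.0856) and MX2 (-0.93, adjusted p = 0.0606) did not pass, while IFITM3 (-0.90, adjusted p = 0.00658), STAT2 (-0.80, adjusted p = 0.000939) and GBP1 (0.99, adjusted p = 0.0171) did. IRF9 (-0.66, adjusted p = 0.0698) did not pass. XAF1 did not pass without T47D GFOGER replicate 3 (-1.04, adjusted p = 0.113) or MDA-MB-231 IKVAV replicate 2 (-1.65, adjusted p = 0.0537). In the proteasome core all 14 genes had a more positive effect in MDA-MB-231 cells, and 12 passed (85.7%, where 10.9% of all genes did). Other lists went the other way, where 10.2% of all genes passed as more negative. More negative were 9 of 11 class II genes (81.8%), 8 of 19 class I genes (42.1%) and 15 of 49 further interferon-induced genes (30.6%). In these 3 lists 0, 2 and 1 genes passed as more positive.

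The last comparison set the lines against each other. In each line the mean of the 2 mimics was taken. By this measure 23 of 37 members (62.2%) were more than 2-fold higher in MDA-MB-231 than in T47D cells, where 23.7% of 15320 genes were. Another 4 (10.8%) were more than 2-fold lower, where 22.6% of genes were. The median log2 difference of the members was 1.67, beside -0.02 over all genes. Within GFOGER libraries alone the median was 1.69 and within IKVAV libraries alone 1.76.

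The largest increases were in IFI44, IFIT3, IFIT2, IFI44L, GBP1 and HERC5. IFI44 lay between 42.0 and 58.2 cpm in the 5 MDA-MB-231 libraries, with a median of 48.5, and between 0.20 and 1.65 cpm in the 6 T47D libraries (log2 difference 6.34 ± 0.21, adjusted p = 1.88e-16). IFIT3 was at 204 to 369 cpm against 4.00 to 8.26 cpm (5.6 ± 0.11, adjusted p = 2.76e-20), and IFIT2 at 152 to 271 cpm against 3.39 to 5.30 cpm (5.54 ± 0.10, adjusted p = 5.78e-21). No library of one line reached a library of the other. IFI44L was at 2.28 to 6.15 cpm against 0 to 0.24 cpm, or 0 to 4 counts, so that its fitted log2 difference of 5.04 ± 0.33 rests on very few T47D reads. GBP1 was at 61.8 to 75.9 cpm against 1.38 to 3.09 cpm (4.96 ± 0.10), and HERC5 at 81.3 to 112 cpm against 2.26 to 4.95 cpm (4.84 ± 0.11), again with no overlap. ISG15 was at 55.5 to 79.3 cpm in MDA-MB-231 and at 1.04 to 6.38 cpm in T47D (4.65 ± 0.19, adjusted p = 5.07e-15).

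The 4 members more than 2-fold lower in MDA-MB-231 cells were OAS3, PARP9, CMPK2 and IFI6. OAS3 was at 50.5 to 89.3 cpm in MDA-MB-231 and at 153 to 242 cpm in T47D (-1.53 ± 0.08, adjusted p = 1.93e-13). PARP9 was at 22.6 to 30.1 cpm against 54.2 to 85.0 cpm (-1.40 ± 0.11, adjusted p = 1.46e-10). Neither overlapped between the lines. CMPK2, at 0.19 to 1.43 cpm against 0.85 to 1.94 cpm (-1.19 ± 0.30, adjusted p = 0.0011), overlapped and differed by mimic, and within IKVAV libraries alone it did not pass (adjusted p = 0.94). IFI6, an inhibitor of apoptosis and of viral replication, was at 9.14 to 11.9 cpm against 9.52 to 35.1 cpm and overlapped too (-1.03 ± 0.22, adjusted p = 0.000248), and lay within 2-fold when T47D IKVAV replicate 3, T47D GFOGER replicate 3 or MDA-MB-231 GFOGER replicate 2 was left out. MX1, at 21.5 to 25.5 cpm against 20.4 to 94.9 cpm (-0.89 ± 0.21), and UBE2L6, at 58.7 to 65.3 cpm against 55.4 to 82.3 cpm (-0.18 ± 0.07), were lower by less than 2-fold, and both overlapped.

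Genes of one family had unlike differences between the lines. OAS2 was higher in MDA-MB-231 cells (log2 difference 2.04 ± 0.13) and OASL much higher (4.61 ± 0.17), while OAS3 was lower and OAS1 did not pass (-0.07 ± 0.22, adjusted p = 0.77). IFITM3 was higher by 4.43 ± 0.09, IFITM1 by 1.02 ± 0.14, and IFITM2 did not pass (0.03 ± 0.09, adjusted p = 0.735). PSMB9 was higher by 3.17 ± 0.12, PSMB8 by 1.39 ± 0.08 and TAP1 by 0.52 ± 0.07, each past the threshold on adjusted p. Among the transcription factors, IRF1 was higher by 3.61 ± 0.09, IRF7 by 2.27 ± 0.13, STAT2 by 1.02 ± 0.05 and IRF9 by 0.74 ± 0.09.

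**Figure D5:**
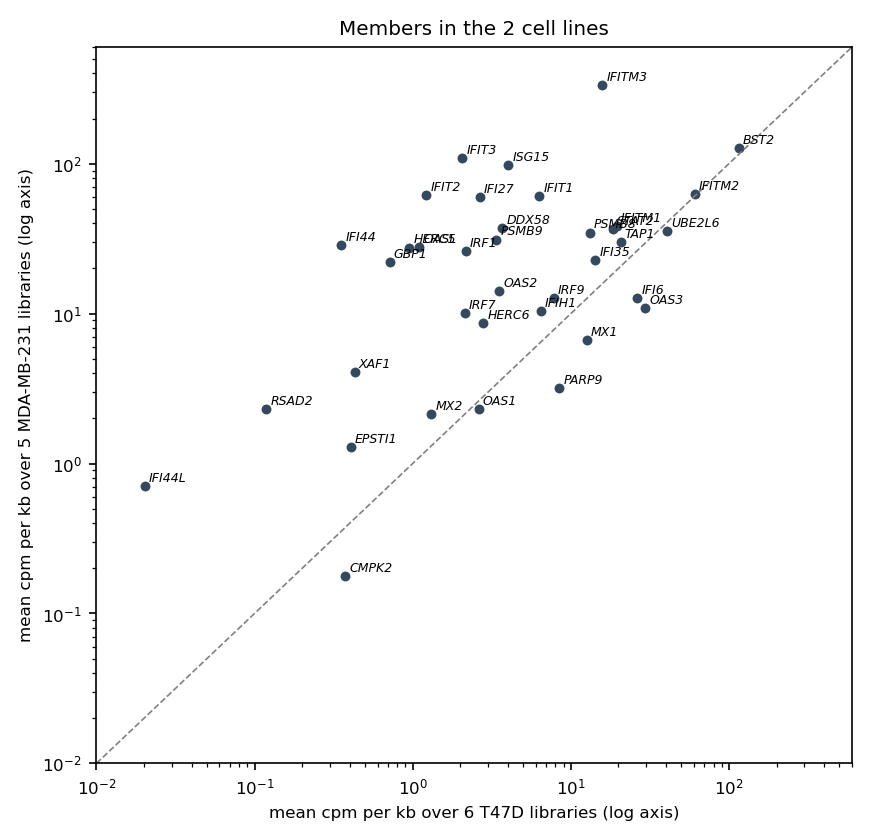
Mean level of each member in cpm per kb over the 6 T47D libraries (horizontal log axis) and the 5 MDA-MB-231 libraries (vertical log axis), with a dashed line of equal level. Most members lie above the line, BST2, IFITM2 and OAS1 lie near it, and OAS3, PARP9, IFI6, MX1 and CMPK2 lie below it.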

How the data were processed

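RNA was taken from 11 libraries of the 2 lines. Per the labels and the study's methods, the authors prepared poly(A) libraries, trimmed reads with Trim Galore 0.4.4, aligned them to hg19 with TopHat2 2.1.0 and counted them with HTSeq 0.6.1p1. The submitters' processing notes also name edgeR 3.16.5. Which gene models HTSeq used, and whether it used strand, is not given in the sources used here. The deposited table holds whole counts per gene and RPKM values, which the authors scaled by length and depth. Only the counts were tested. The RPKM values served to recover the library totals they were computed with, which in some libraries were far below the counted totals.

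Of 24656 rows, 1288 that repeat a symbol were left out, keeping the copy on an ordinary chromosome with most counts. Genes passing edgeR's filterByExpr were fitted by its quasi-likelihood test with TMM factors (R 4.3.3, edgeR 4.0.16), within each line for the mimics, and over all libraries for the lines and the interaction. P-values were adjusted by Benjamini-Hochberg over all genes tested. A gene rose or fell with an adjusted p below 0.05, and "beyond 2-fold" adds a log2 change over 1. DESeq2 1.42.0 and limma 3.58.1 were alternatives. The fits were tested on simulated data, with outcomes that are not reported here. Total counts of 14338247 to 18452148 set the cpm that 3 counts stand for.

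The members and lists were chosen with earlier results of these data known, and no list was tested as a set. Values in every library were given for the 8 called members with the largest changes between mimics in MDA-MB-231 cells and for ISG15, IFIT1, MX1, OAS1, STAT2, IRF1, IRF9, PSMB8, PSMB9 and TAP1, and ranges over libraries for the 6 largest changes in each direction between lines. From some of the other lists genes with large changes were named, and so were fixed receptors, kinases, HLA, B2M and proteasome genes. No gene of the nucleic acid sensing list was named, nor were the receptor and signalling genes that rose. RSAD2, TAP2, PSME2 and CD74, and the library values of further members, were added after their values were seen. The study's methods say that 1 replicate of MDA-MB-231 in IKVAV was left out of its differential expression for a low mapping rate and other signs of poor quality, without giving its number. Replicate 3 of that group was not analysed here. Some genes of the lists are not reported here.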

Additional observations from a re-analysis of the deposited data

Results flagged for a closer look

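For 4 members the effect of GFOGER relative to IKVAV differed between the cell lines beyond 2-fold, by the interaction term of edgeR's quasi-likelihood test over all 11 libraries. The difference of effects was -2.32 for CMPK2 (adjusted p = 0.0098), -1.69 for XAF1 (adjusted p = 0.0164), -1.39 for MX2 (adjusted p = 0.00199) and -1.04 for IFITM3 (adjusted p = 0.000269), on the log2 scale. Each was negative in MDA-MB-231 and positive in T47D cells, where none passed by itself. Without T47D GFOGER replicate 3, XAF1 was at -1.04 and did not pass (adjusted p = 0.113). CMPK2 rests on 3 to 34 counts per library. With the RPKM totals as a term in the fit, all 4 kept their sign. IFITM3 passed at -0.90 (adjusted p = 0.00658), and CMPK2 at -1.95, XAF1 at -1.46 and MX2 at -0.93 did not (adjusted p = 0.076, 0.0856 and 0.0606).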

How the results depend on the processing

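No result changed direction past a threshold under the alternatives run. For MDA-MB-231, 2 members passed beyond 2-fold, against 17 at any fold, 1 with at least 10 counts in every library and 0 with the 2-fold threshold inside the test, and 1 to 3 with a library left out. The 9 that rose became 4 with RPKM totals as a term, 5 with all 4 groups in one fit and 4 to 13 with a library left out (4 without IKVAV replicate 1, 13 without GFOGER replicate 3), and the 8 that fell 6 to 11. Over all genes in MDA-MB-231 cells, 6040 of 14092 passed in either direction in the main fit and 8017 of 13939 without GFOGER replicate 3. With RPKM totals as a term 3898 of 14092 did, and with all 4 groups in one fit 6102 of 15320. For T47D, none beyond 2-fold became 2 with no filter and 0 to 4 with a library left out (4 without IKVAV replicate 3). None at any fold became 4 up with no filter, 6 up and 1 down with limma voom, 8 up without replicate 3 of both groups (chosen after seeing the data) and 0 to 12 up with a library left out (12 without IKVAV replicate 3). Over all genes in T47D cells, 6 of 13642 passed in either direction in the main fit, 121 of 18780 with no filter and 1506 of 13642 with limma voom. Without replicate 3 of both groups 1301 of 13727 did, and without IKVAV replicate 3 alone 1054 of 13830. Between lines, 6 lower became 3 within IKVAV libraries, where 11838 of 15320 genes passed in either direction, against 12947 in the main fit. For the interaction, 4 beyond 2-fold became 7 at any fold, 0 with RPKM totals as a term, 0 with the threshold inside the test and 2 to 7 with a library left out (2 without T47D GFOGER replicate 3, 7 without T47D IKVAV replicate 3). The 6 more negative became 13 with no filter, 11 with limma voom, 2 with RPKM totals as a term and 5 to 10 with a library left out, and the 1 more positive 1 to 2, and 2 without replicate 3 of both T47D groups. Of all genes, 3221 of 15320 passed the interaction in either direction in the main fit, 3499 of 20039 with no filter and 5188 of 15320 with limma voom. With RPKM totals as a term 3101 of 15320 did. With a library left out, 2462 to 4052 genes did where each group kept at least 2 libraries. Where a group was left with 1 library, that library was assumed to vary like the others. Same-numbered libraries were taken to share only a number, since their deviations correlated at -0.11 to 0.05 over all genes; over the members the correlation was 0.03 to 0.40, highest for T47D replicate 3. With a replicate block, 13 members rose and 11 fell in MDA-MB-231 cells, where 8079 of 14092 genes passed, and 1 rose in T47D cells, where 38 of 13642 did.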
